A study of Mus musculus with 12 samples.

Results

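The levels of 9 CC chemokine genes (Ccl2, Ccl3, Ccl4, Ccl5, Ccl7, Ccl17, Ccl20, Ccl22 and Ccl24) and of the receptor gene Ccr6 were followed in bulk RNA-seq of mouse back skin. They were taken as a list of named genes, chosen with earlier results of these data known but by no rule on their levels. The list makes up 10 of the 56923 genes in the count table. All 10 passed the filter on low counts, which keeps a gene with enough reads in as many libraries as a group has mice. CC chemokines are small secreted proteins that recruit leukocytes through G protein-coupled receptors named CCR, and in skin they come from keratinocytes, fibroblasts and myeloid cells. CCL20 is known as the ligand of CCR6, the receptor carried by T cells that make IL-17 and by some dendritic cells, and this pair is widely studied in psoriasis.

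The 12 mice fell into 4 groups of 3. WT control mice were wild-type littermates given vehicle cream, and WT IMQ mice were wild-type littermates given imiquimod (IMQ) cream at 5%, a TLR7 agonist that induces psoriasis-like inflammation. KO-labelled control and KO-labelled IMQ mice were their counterparts labelled Lcn2-/-, a bought line in which the gene of the secreted protein lipocalin-2 is meant to be lost. All were female mice on the C57BL/6 background, aged 8 to 10 weeks, treated daily on the shaved back for 6 days. The sample labels give the genotype both as a knockout and as a knockdown, and the treatment of control mice as none, where the study's methods give vehicle.

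Levels are given in CPM, counts scaled to a common library size after TMM, and differences as log2 fold changes from 1 fit over the 12 mice. A gene was called when edgeR's quasi-likelihood test gave it a Benjamini-Hochberg adjusted p under 0.05 over the 18529 genes tested. Libraries held between 16448226 and 28592110 counted reads, so the floor of 3 reads lay between 0.105 and 0.182 CPM before TMM scaling. That floor covers counting error only, because PCR copies of a molecule could not be told from separate molecules. Reads on Lcn2, the targeted gene, were counted in every KO-labelled library: 6.5 ± 2.04 CPM in WT control, 107 ± 66.5 in WT IMQ, 11.9 ± 3.57 in KO-labelled control and 38 ± 10.5 in KO-labelled IMQ mice (SD, n = 3 each). Lcn2 was 2.81-fold lower in KO-labelled IMQ than in WT IMQ mice, which missed the threshold (adjusted p = 0.0525, edgeR). The study lists Lcn2 among the genes downregulated in this comparison. Reads in every KO-labelled library go against a loss of the transcript, and whether they come from the undeleted part of the gene was not tested. The genotype is therefore named as labelled throughout. The extraction label names retinas, but 8 keratinocyte markers summed to between 4541 and 38929 CPM and 8 retina markers to at most 3.03 CPM. Each mouse is 1 library, so p-values measure the spread between these mice.

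The 10 genes lie at 6 places in the genome (GRCm38). Ccl2 (chr11:82035571-82037453) and Ccl7 (chr11:82045712-82047525) are neighbours. Ccl5 (chr11:83525778-83530518), Ccl3 (chr11:83647844-83649355) and Ccl4 (chr11:83662584-83664683) lie within 138.9 kb further along the same chromosome. Ccl22 (chr8:94745590-94751699) and Ccl17 (chr8:94810453-94812036) lie within 66.4 kb of each other. Ccl20 (chr1:83116766-83119167), Ccl24 (chr5:135569937-135573049) and Ccr6 (chr17:8236043-8257141) stand alone. All are protein-coding, and no exon of theirs overlapped an exon of another annotated gene.

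The 250 bases before the start site, from RefSeq on GRCm38.p6, were held for 5 of the 10 genes (Ccl3, Ccl17, Ccl20, Ccl22 and Ccr6, the last with 2 start sites). Those of Ccl20, Ccl22 and Ccl3 are printed here because their genes changed in different comparisons: Ccl20 in KO-labelled mice, Ccl22 in both genotypes and Ccl3 in WT mice. Each is written 5′ to 3′ on the gene's strand, at chr1:83116516-83116765 (plus strand), chr8:94745434-94745683 (plus strand) and chr11:83649379-83649628 (minus strand). Capitals mark the match to the consensus site of NF-kB, the factor activated downstream of TLR7.
Ccl20: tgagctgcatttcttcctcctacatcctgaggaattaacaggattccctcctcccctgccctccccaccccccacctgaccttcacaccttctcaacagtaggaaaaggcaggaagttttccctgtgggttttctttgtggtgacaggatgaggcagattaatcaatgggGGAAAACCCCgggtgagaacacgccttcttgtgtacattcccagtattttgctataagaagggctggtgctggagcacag
Ccl22: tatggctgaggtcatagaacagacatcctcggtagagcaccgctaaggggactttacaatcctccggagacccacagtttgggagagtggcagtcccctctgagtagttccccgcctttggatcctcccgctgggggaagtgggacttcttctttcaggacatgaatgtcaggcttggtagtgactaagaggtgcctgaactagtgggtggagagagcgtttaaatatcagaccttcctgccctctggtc
Ccl3: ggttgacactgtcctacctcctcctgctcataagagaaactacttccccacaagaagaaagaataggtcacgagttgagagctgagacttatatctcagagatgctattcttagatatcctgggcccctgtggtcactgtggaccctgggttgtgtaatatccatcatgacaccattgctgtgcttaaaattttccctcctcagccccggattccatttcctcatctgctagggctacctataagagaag

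The NF-kB consensus was found on either strand in 2 of the 6 stretches. In Ccl20 it ran from 80 to 71 bases before the start. In the downstream start of Ccr6 (upstream stretch chr17:8242276-8242525), overlapping matches spanned 81 to 71 bases before the start. Among 32851 mouse promoter stretches of the same length, 7.25% held such a match. The AP-1 letters TGANTCA and the TATA box letters TATAAA, searched on both strands, were in 0 of the 6, against 6.75% and 12.4% of all promoters. A match describes the letters only, and no binding was measured here.

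In WT mice, 2 of the 10 genes were called higher after IMQ (Ccl3 and Ccl4) and 2 lower (Ccl22 and Ccl24). Of all genes tested, 14.2% were called higher and 14.3% lower in this comparison, so the members' shares were close to the background. In KO-labelled mice, 0 were called higher (background 14.1%; 0 by DESeq2, and 0 at an unadjusted p under 0.05, background 19.7%) and 5 lower: Ccl2, Ccl7, Ccl20, Ccl22 and Ccl24 (background 11.2%). The median log2 fold change of the 10 genes was 0.10 in WT and -1.36 in KO-labelled mice, beside -0.02 and -0.05 for all genes tested. Between the IMQ groups, Ccl20 was called lower in KO-labelled mice (background 2.6%) and 0 were called higher (background 2.19%; 1 by DESeq2, and 1 at an unadjusted p under 0.05, background 12.5%). It was also called, alone among the 10 by edgeR, in the test of whether the response to IMQ depended on genotype (background 0.783% for lower and 1.37% for higher, where 0 members were called by edgeR, 1 by DESeq2, and 2 at an unadjusted p under 0.05). The background shares are those of edgeR, and DESeq2 called more genes in all. Between the IMQ groups it called 1187 higher, beside 405 by edgeR, and for the difference between responses 1033 beside 253. On simulated data 17.7% of the DESeq2 calls were false, beside 3.36% of the edgeR calls. These comparisons share groups of mice and are not independent of each other.

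Members were also counted by a fold above 2 with an unadjusted p under 0.05. In WT mice this gave 2 higher (background 8.4%) and 3 lower with IMQ, the third being Ccl5 (background 9.79%). In KO-labelled mice it gave 0 higher (background 8.59%) and the same 5 lower (background 8.37%). Between the IMQ groups it gave Ccl5 higher (background 3.1%) and Ccl20 lower (background 3.35%). For the difference between responses it gave 2 higher, Ccl5 and Ccl24 (background 6.06%), and 4 lower, Ccl2, Ccl4, Ccl7 and Ccl20 (background 4.91%).

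Counted by groups that did not overlap, 0 members were higher in WT IMQ than in WT control mice (background 20.1%) and 2 were lower, Ccl22 and Ccl24 (background 20.6%). In KO-labelled mice Ccl5 was higher with IMQ in each mouse (background 23.1%), and the 5 called genes were lower in each (background 22.8%). Between the IMQ groups Ccl5 was higher (background 16%) and Ccl2 and Ccl20 were lower (background 17.3%) in each KO-labelled mouse.

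**Figure D1:**
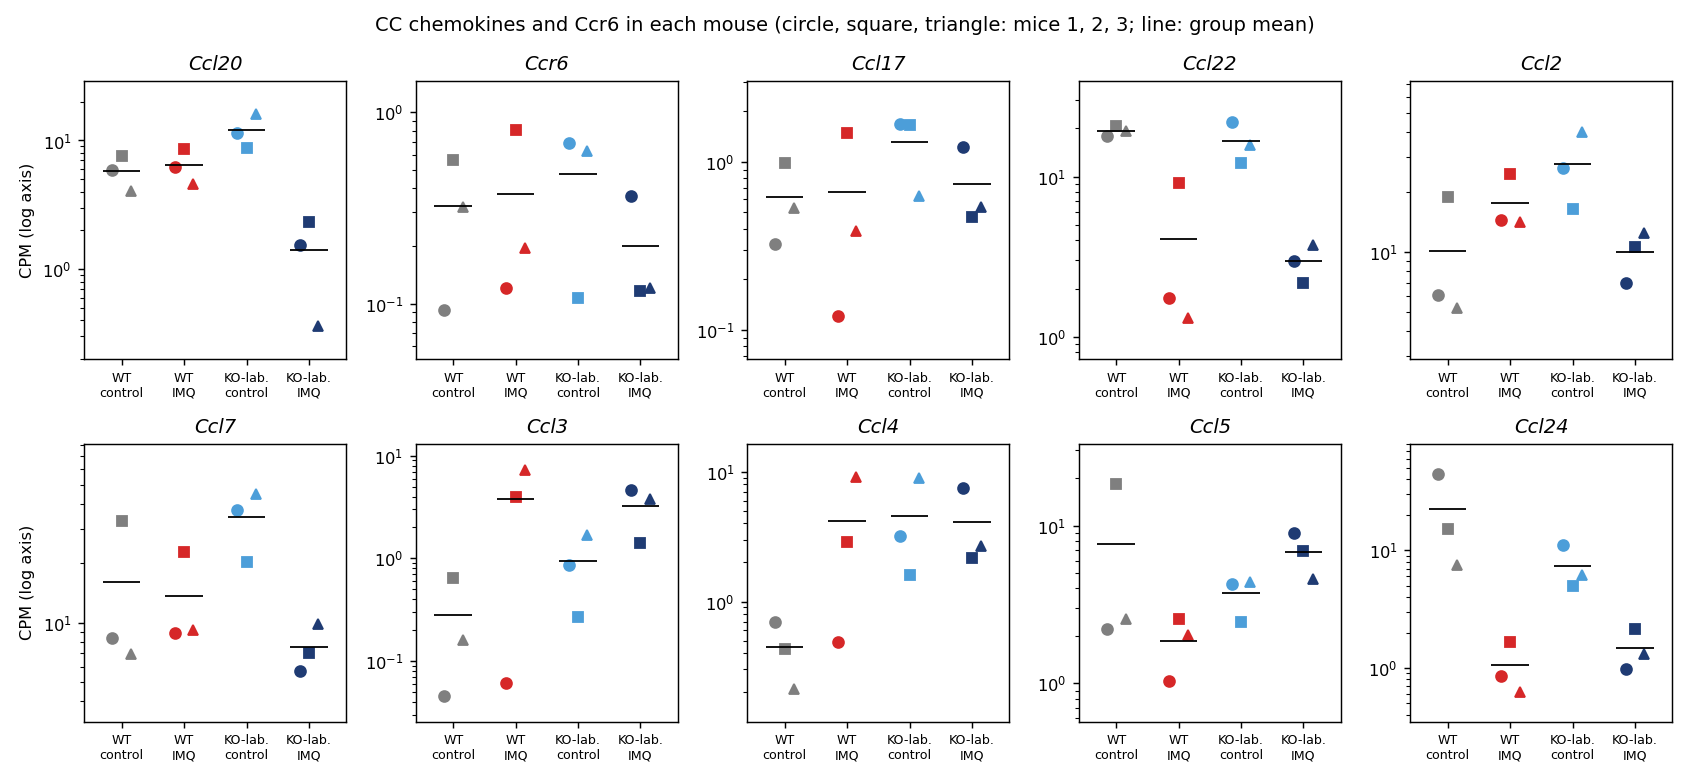
Level of each gene (CPM, log axis) in the 12 mice, by group; symbols mark mice 1 to 3 and lines the group means. Ccl20 lies between 0.36 and 2.34 CPM in KO-labelled IMQ mice, below all other groups, while Ccl22 and Ccl24 are lower after IMQ in both genotypes.

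Ccl20 (ENSMUSG00000026166), which is made mainly by epithelial cells, did not pass the test after IMQ in WT skin and fell in KO-labelled skin. It measured 5.91, 7.57 and 4.04 CPM in WT control mice 1 to 3 and 6.24, 8.54 and 4.6 CPM in WT IMQ mice. In KO-labelled mice it measured 11.4, 8.74 and 16.1 CPM without IMQ and 1.53, 2.34 and 0.36 CPM with it. All 3 KO-labelled IMQ mice were lower than every other mouse, and all 3 KO-labelled control mice were higher than every other mouse. The lowest value, that of KO-labelled IMQ mouse 3, rested on 6 reads.

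The log2 fold change of Ccl20 with IMQ was 0.14 ± 0.46 (SE) in WT mice (adjusted p = 0.852, edgeR). It fell by 3.09 ± 0.51 on the log2 scale in KO-labelled mice, which is 8.53-fold (adjusted p = 0.0017). The latter call held in each of 6 fits that omitted 1 KO-labelled mouse, with log2 values from -3.67 to -2.64. The difference between these responses was -3.23 ± 0.68 (adjusted p = 0.0423).

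**Figure D2:**
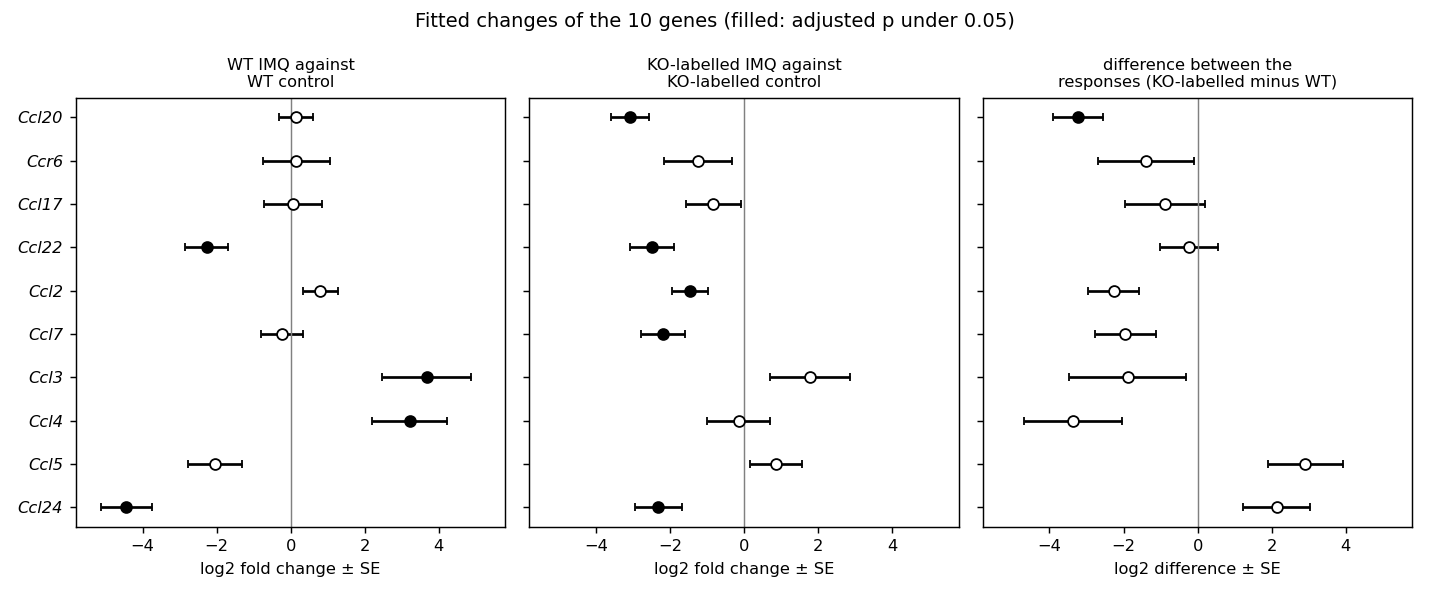
Fitted log2 changes with their standard errors (bars) for the 10 genes: IMQ against control in WT mice, in KO-labelled mice, and the difference between the responses. Filled points passed an adjusted p of 0.05; Ccl20 sits at 0.14, -3.09 and -3.23 in the 3 panels.

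Between the IMQ groups Ccl20 was lower in KO-labelled mice by a log2 value of -2.19 ± 0.50, or 4.55-fold (adjusted p = 0.0393), and the groups did not overlap. Groups of IMQ mice did not overlap, in this direction, for 17.3% of all genes. This call held without WT IMQ mouse 2 (-1.93, adjusted p = 0.0408) and was lost without any one of the other 5 mice, where the adjusted p lay between 0.0738 and 0.163 and the log2 value between -2.76 and -1.73. In those 5 fits at most 1 of all genes was called higher and at most 3 lower, so the loss was not particular to Ccl20. The call on the difference between responses held in 4 of 12 fits that each omitted 1 mouse, those without WT control mouse 3, WT IMQ mouse 2, KO-labelled control mouse 1 or KO-labelled IMQ mouse 3. Across the 12 fits its log2 value stayed between -3.81 and -2.77, with adjusted p from 0.0301 to 0.127. Over all genes the calls on that difference ran from 2 higher and 0 lower (without WT IMQ mouse 3) to 1015 and 912 (without WT IMQ mouse 2). In the controls Ccl20 was 1.05 ± 0.46 higher on the log2 scale in KO-labelled mice, without overlap between the groups (adjusted p = 0.749).

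Keratinocyte markers were lower in KO-labelled IMQ than in WT IMQ mice, as Ccl20 was, but rose with IMQ in KO-labelled mice, where Ccl20 fell. The 8 markers (Krt5, Krt14, Krt1, Krt10, Lor, Dsg3, Trp63 and Krtdap) summed to 29704 to 38929 CPM in WT IMQ and 16944 to 28113 CPM in KO-labelled IMQ mice, against 4541 to 7475 CPM in WT control and 5023 to 6208 CPM in KO-labelled control mice. Of these markers, 7 of 8 were called higher with IMQ in each genotype and 2 of 8 were called lower in KO-labelled IMQ than in WT IMQ mice. Their median log2 fold change was 1.93 with IMQ in WT mice, 1.37 with IMQ in KO-labelled mice and -0.68 between the IMQ groups. The fibroblast markers summed to 21009 to 21885 CPM in KO-labelled IMQ and 10762 to 11420 CPM in WT IMQ mice, with 4 of 8 called higher. The part of these markers in the Ccl20 result was not tested. In bulk skin, fewer cells of a type and less RNA per cell cannot be told apart.

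Ccr6 (ENSMUSG00000040899), the receptor of CCL20, was barely counted, with 2 to 21 reads per library. It measured 0.0924, 0.559 and 0.319 CPM in WT control and 0.121, 0.807 and 0.194 CPM in WT IMQ mice. The KO-labelled controls measured 0.69, 0.107 and 0.625 CPM, and the KO-labelled IMQ mice 0.366, 0.117 and 0.12 CPM. Every group contained a mouse at 2 reads, below the floor of 3 reads, and all groups overlapped. The log2 fold changes with IMQ were 0.15 ± 0.90 in WT mice (adjusted p = 0.922) and -1.25 ± 0.92 in KO-labelled mice (adjusted p = 0.341), so a difference was not detectable at this depth. The 8 T cell markers summed to 261 to 389 CPM in WT control, 140 to 196 in WT IMQ, 218 to 327 in KO-labelled control and 218 to 269 in KO-labelled IMQ mice. A sum is led by the most abundant markers. The median log2 fold change of the 8 with IMQ was -1.58 in WT mice (5 called lower) and -0.82 in KO-labelled mice (0 called lower).

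Ccl22 and Ccl17, both ligands of CCR4 and typical products of dendritic cells, gave different pictures. Ccl22 (ENSMUSG00000031779) measured 17.8, 20.7 and 19.2 CPM in WT control and 1.76, 9.14 and 1.31 CPM in WT IMQ mice. It measured 21.9, 12.2 and 15.8 CPM in KO-labelled control and 2.99, 2.16 and 3.72 CPM in KO-labelled IMQ mice. Each IMQ mouse was below each control mouse of either genotype, and WT IMQ mouse 2 was the highest of the IMQ mice. Ccl22 fell by 2.26 ± 0.58 on the log2 scale in WT mice (4.8-fold, adjusted p = 0.013) and fell by 2.49 ± 0.59 in KO-labelled mice (5.63-fold, adjusted p = 0.0106).

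Mouse 2 of the WT IMQ group set the size of the WT change. Without it Ccl22 had a log2 fold change of -3.66 (adjusted p = 3.42e-05), and the comparison of the IMQ groups turned from -0.44 (adjusted p = 0.662) to 0.96 (adjusted p = 0.067). The difference between the genotypes' responses moved from -0.23 (adjusted p = 0.888) to 1.16 (adjusted p = 0.0816) without that mouse. The call in WT mice was lost without WT IMQ mouse 1 (-1.90, adjusted p = 0.0578).

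Ccl17 (ENSMUSG00000031780) was low, at 2 to 51 reads per library. It measured 0.323, 0.989 and 0.532 CPM in WT control, 0.121, 1.48 and 0.387 in WT IMQ, 1.68, 1.65 and 0.625 in KO-labelled control and 1.22, 0.468 and 0.54 in KO-labelled IMQ mice. All groups overlapped, and its log2 fold changes with IMQ were 0.07 ± 0.78 in WT and -0.83 ± 0.74 in KO-labelled mice (adjusted p = 0.963 and 0.442). The receptor of both ligands, Ccr4, which marks Th2 and skin-homing T cells, had log2 fold changes of -2.30 ± 0.58 in WT and -1.90 ± 0.56 in KO-labelled mice, both called lower (adjusted p = 0.0125 and 0.0281). It measured 4.48, 5.29 and 4.57 CPM in WT control, 0.242, 2.15 and 0.581 in WT IMQ, 5.29, 6.18 and 6.3 in KO-labelled control and 2.44, 0.818 and 1.5 in KO-labelled IMQ mice. As with Ccl22, no IMQ mouse reached the level of a control mouse.

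Markers of dendritic and Langerhans cells were lower with IMQ in both genotypes, as Ccl22 was. The 8 genes (Cd207, Epcam, Itgax, Flt3, Zbtb46, Xcr1, Ccr7 and Cd209a) summed to 207 to 240 CPM in WT control and 90.5 to 142 in WT IMQ mice, and to 221 to 284 in KO-labelled control and 95.6 to 117 in KO-labelled IMQ mice. Of the 8, 4 were called lower with IMQ in each genotype, with median log2 fold changes of -1.38 in WT and -0.83 in KO-labelled mice. For KO-labelled IMQ against WT IMQ mice the marker median was 0.82 (1 called higher), where Ccl22 was at -0.44. WT IMQ mouse 2, with the most Ccl22 of the IMQ mice, also had the highest marker sum among them. The part of these cells in the fall of Ccl22 was not tested.

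**Figure D3:**
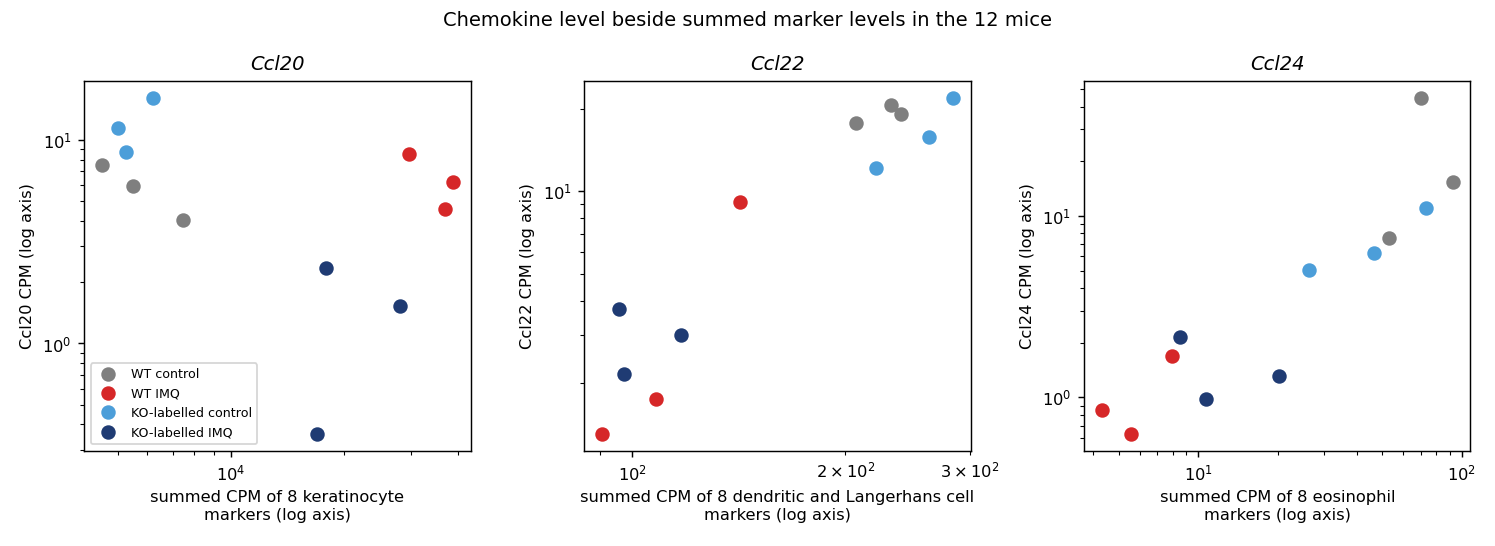
Level of a chemokine (CPM, log axis) against the summed level of 8 marker genes (CPM, log axis) in each of the 12 mice: Ccl20 beside keratinocyte, Ccl22 beside dendritic and Langerhans cell, and Ccl24 beside eosinophil markers. Ccl22 and Ccl24 are low in the mice in which their marker sums are low, and Ccl20 is lowest in the KO-labelled IMQ mice, whose keratinocyte sums lie between 16944 and 28113 CPM.

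Ccl24 (ENSMUSG00000004814, eotaxin-2), which attracts eosinophils through CCR3 and is made by macrophages, had the largest change of the 10 genes with IMQ in WT mice. It measured 44.7, 15.3 and 7.55 CPM in WT control and 0.848, 1.68 and 0.63 CPM in WT IMQ mice. In the KO-labelled groups it measured 11, 5.01 and 6.21 CPM without IMQ and 0.977, 2.16 and 1.32 CPM with it. The controls were above the IMQ mice in both genotypes, and WT control mouse 1 was far above the other controls. Ccl24 fell by 4.44 ± 0.69 on the log2 scale in WT mice (21.8-fold, adjusted p = 0.000782), a call kept in each of 6 fits that omitted 1 WT mouse (log2 values from -4.94 to -3.46).

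In KO-labelled mice Ccl24 fell by 2.32 ± 0.64 (4.98-fold, adjusted p = 0.0215). That call was lost without KO-labelled control mouse 1 (-1.91), KO-labelled IMQ mouse 1 (-2.09) or KO-labelled IMQ mouse 3 (-2.24), with adjusted p up to 0.0797. The difference between the responses, 2.13 ± 0.90, missed the threshold (adjusted p = 0.18). In the controls Ccl24 had a log2 value of -1.60 ± 0.58 for KO-labelled against WT mice, where the groups overlapped (adjusted p = 0.669).

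Ccr3, the eosinophil receptor for CCL24, fell by 3.71 ± 0.92 in WT mice on the log2 scale (adjusted p = 0.0116). Its levels were 5.91, 8.12 and 1.06 CPM in WT control and 0.727, 0 and 0.387 CPM in WT IMQ mice. In KO-labelled mice Ccr3 was at 3.8 ± 1.92 CPM without IMQ and 2.31 ± 1.31 CPM with it (SD, n = 3 each; log2 fold change -0.73 ± 0.78, adjusted p = 0.522). The 8 eosinophil markers, of which Ccr3 is one, summed to 53.2 to 92.6 CPM in WT control and 4.3 to 7.93 CPM in WT IMQ mice. They summed to 26.4 to 73 CPM in KO-labelled control and 8.54 to 20.3 CPM in KO-labelled IMQ mice. Epx, a granule peroxidase that defines the cell, was at 0 in WT control, WT IMQ and KO-labelled IMQ mice, and Ear1 in both IMQ groups. Of the 8 eosinophil markers 4 were tested, with 2 called lower in WT and 1 in KO-labelled mice. The 8 monocyte and macrophage markers rose in KO-labelled mice, with a median log2 fold change of 1.94 (6 called higher). In WT mice their median was 0.13 (3 called higher). Their sums overlapped between WT control (440 to 1754 CPM) and WT IMQ mice (1152 to 1959 CPM). Whether eosinophil or macrophage numbers play a part in the Ccl24 values was not tested.

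Ccl2 and Ccl7, the monocyte attractants that act on CCR2, fell with IMQ in KO-labelled mice. Ccl2 (ENSMUSG00000035385) measured 26.5, 16.4 and 40.1 CPM in KO-labelled control and 6.96, 10.6 and 12.4 CPM in KO-labelled IMQ mice. Ccl7 (ENSMUSG00000035373) measured 37.5, 20.4 and 44.9 CPM in the former and 5.68, 7.02 and 9.83 CPM in the latter. In both genes the KO-labelled groups did not overlap. Ccl2 fell by 1.47 ± 0.49 on the log2 scale (2.77-fold, adjusted p = 0.0463) and Ccl7 fell by 2.19 ± 0.60 (4.56-fold, adjusted p = 0.021).

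The Ccl2 call held in 1 of the 6 fits without a KO-labelled mouse, the one without KO-labelled control mouse 2 (adjusted p across the 6 from 0.0355 to 0.166). The Ccl7 call held in 2 of 6, those without KO-labelled control mouse 1 or 2 (adjusted p from 0.0214 to 0.0764). Without KO-labelled control mouse 3, the highest for both genes, the log2 values were -1.11 and -1.95.

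In WT mice Ccl2 measured 6.1, 18.9 and 5.21 CPM without IMQ and 14.4, 24.5 and 14.1 CPM with it. For Ccl7 the WT values were 8.36, 32.8 and 6.97 CPM without IMQ and 8.85, 22.9 and 9.2 CPM with it. WT control mouse 2 was far above the other 2 WT controls in both genes. Neither gene was called (Ccl2 0.80 ± 0.48, adjusted p = 0.238; Ccl7 -0.24 ± 0.57, adjusted p = 0.787). Without WT control mouse 2, Ccl2 had a log2 fold change of 1.64 with an adjusted p of 0.0145, and Ccl7 one of 0.83 with an adjusted p of 0.224.

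The genotypes' responses differed by -2.27 ± 0.69 for Ccl2 (adjusted p = 0.09) and by -1.95 ± 0.82 for Ccl7 (adjusted p = 0.178), neither of which edgeR called. DESeq2, which called more genes in all for this difference, called that of Ccl2 (adjusted p = 0.0131). Without WT control mouse 2 the Ccl2 value became -3.11 with an adjusted p of 0.0346. That mouse also had the highest sum of 8 monocyte and macrophage markers among the WT controls, 1754 CPM beside 961 and 440 CPM. In the KO-labelled mice the marker sum and these ligands went in opposite directions, with sums of 422 to 775 CPM without IMQ and 1840 to 2565 CPM with it (6 of 8 markers called higher). In WT IMQ mice the sum was 1152 to 1959 CPM. The part of these cells in the result was not tested.

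Ccl12, a further CCR2 ligand of the mouse, lies outside the list of 10 and fell by 3.07 ± 0.72 on the log2 scale in KO-labelled mice (adjusted p = 0.0106). It measured 16.6, 12.9 and 37.5 CPM in KO-labelled control and 3.11, 1.93 and 2.94 CPM in KO-labelled IMQ mice. Again KO-labelled control mouse 3 was the highest. In WT mice its log2 fold change was -0.49 ± 0.67 (adjusted p = 0.624). The receptor Ccr2 moved by -1.07 ± 0.37 in WT mice (adjusted p = 0.0519) and by 0.82 ± 0.37 in KO-labelled mice (adjusted p = 0.126), and these responses differed by 1.89 ± 0.53 (adjusted p = 0.0774).

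Ccl3 and Ccl4, the macrophage inflammatory proteins, which attract monocytes and T cells, rose with IMQ in WT mice. Ccl3 (ENSMUSG00000000982) measured 0.0462, 0.645 and 0.16 CPM in WT control and 0.0606, 3.97 and 7.27 CPM in WT IMQ mice. Ccl4 (ENSMUSG00000018930) measured 0.693, 0.43 and 0.213 CPM in the former and 0.485, 2.89 and 9.15 CPM in the latter. Mouse 1 of the WT IMQ group stayed at control level for both genes, so the groups overlapped. The log2 fold changes were 3.67 ± 1.20 for Ccl3 (12.8-fold, adjusted p = 0.0404) and 3.21 ± 1.01 for Ccl4 (9.25-fold, adjusted p = 0.0334).

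Each call held in 2 of the 6 fits without a WT mouse. Ccl3 remained called without WT control mouse 2 or WT IMQ mouse 1, and Ccl4 without WT IMQ mouse 1 or 2. Elsewhere the adjusted p reached 0.155 for Ccl3 and 0.193 for Ccl4, and Ccl4 without WT IMQ mouse 3 had a log2 value of 1.88.

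In KO-labelled mice Ccl3 measured 0.854, 0.266 and 1.7 CPM without IMQ and 4.64, 1.4 and 3.78 CPM with it. Ccl4 measured 3.19, 1.6 and 8.89 CPM without IMQ and 7.51, 2.16 and 2.7 CPM with it. The groups overlapped for both, with log2 values of 1.78 ± 1.07 (adjusted p = 0.242) and -0.15 ± 0.86 (adjusted p = 0.92). Ccl4 was already above the WT controls in all 3 KO-labelled controls, by 3.32 ± 1.00 on the log2 scale (adjusted p = 0.591; unadjusted p = 0.00661), and DESeq2 called this difference (adjusted p = 0.0188). The 8 neutrophil markers all rose with IMQ in each genotype. Their sums lay between 15.3 and 42.9 CPM in WT control and 6092 and 10207 CPM in WT IMQ mice, and between 33.1 and 77.6 CPM in KO-labelled control and 3803 and 10492 CPM in KO-labelled IMQ mice. The part of neutrophils in the Ccl3 and Ccl4 values was not tested.

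Ccl5 (ENSMUSG00000035042, RANTES), a product of activated T cells and a ligand of CCR1 and CCR3, was not called by edgeR in any of the 5 comparisons. It measured 2.22, 18.3 and 2.55 CPM in WT control and 1.03, 2.55 and 2.03 CPM in WT IMQ mice. In KO-labelled mice it measured 4.27, 2.45 and 4.42 CPM without IMQ and 8.98, 6.9 and 4.56 CPM with it. WT control mouse 2 was again apart from its group, and each KO-labelled IMQ mouse was above each WT IMQ mouse and each KO-labelled control mouse. Groups that did not overlap in those directions made up 16% and 23.1% of all genes.

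The log2 fold change of Ccl5 with IMQ was -2.04 ± 0.73 in WT mice (adjusted p = 0.0575, and 0.0117 by DESeq2) and -0.35 (adjusted p = 0.593) without WT control mouse 2. Between the IMQ groups Ccl5 had a log2 value of 1.86 ± 0.73 (adjusted p = 0.137), which DESeq2 called (1.87, adjusted p = 0.0426). The difference between the responses was 2.91 ± 1.01 (adjusted p = 0.119, and 0.0275 by DESeq2), and 1.21 (adjusted p = 0.263) without WT control mouse 2. The 8 T cell markers had median log2 fold changes of -1.58 in WT mice (5 called lower) and -0.82 in KO-labelled mice (0 called lower). The part of T cells in the Ccl5 values was not tested.

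Among the receptors, Ccr1 rose in KO-labelled mice by 2.17 ± 0.72 on the log2 scale (adjusted p = 0.0466). It measured 15.7, 5.01 and 8.35 CPM in KO-labelled control and 33, 28.2 and 70.6 CPM in KO-labelled IMQ mice, without overlap. In WT mice Ccr1 had a log2 fold change of 0.87 ± 0.69 (adjusted p = 0.379).

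Control mice of the 2 genotypes were compared to see the starting levels. None of the 10 genes was called higher or lower by edgeR (0 and 0; background 0.0054% in each direction). At an unadjusted p under 0.05, 3 were higher in KO-labelled controls (Ccl2, Ccl4 and Ccl20; background 2.65%) and 1 was lower (Ccl24; background 3.95%). DESeq2 called 1 of them, Ccl4, in a comparison where it called 56 of all genes higher and 49 lower. For Ccl4 and Ccl20 the groups did not overlap, as for 4.19% of all genes in that direction, and for 0 members in the other (background 5.18%). With a fold above 2 added, the same 3 and 1 genes passed (background 1.35% and 0.928%). The median log2 difference of the 10 genes was 1.07, beside 0.00 for all genes tested.

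Read per kilobase of exons, the order of the mean levels changed with the group. In WT control mice Ccl7 (20 ± 18.1 CPM per kb, SD, n = 3) and Ccl24 (17.4 ± 15.1) came first, followed by Ccl2, Ccl22, Ccl5 and Ccl20, and these neighbours did not differ by more than their SD. The step from Ccl20 (4.11 ± 1.24) to Ccl17 (1.2 ± 0.662) was larger than the spread, and Ccl4, Ccl3 and Ccr6 (0.139 ± 0.101) followed within it. In WT IMQ mice Ccl7 (17 ± 9.97) and Ccl2 (15.5 ± 5.2) led, above Ccl4, Ccl3 and Ccl20 (4.55 ± 1.39). A further step separated these from Ccl5, Ccl22, Ccl17 and Ccl24 (0.813 ± 0.428), and Ccr6 was last.

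In KO-labelled controls Ccl7 (42.8 ± 15.7 CPM per kb) and Ccl2 (24.3 ± 10.5) were each separated from the next gene by more than the larger SD. Ccl20 (8.5 ± 2.63), Ccl22, Ccl4, Ccl24 and Ccl5 followed without such a step, and Ccl17, Ccl3 and Ccr6 came last with one before each. In KO-labelled IMQ mice Ccl7 (9.38 ± 2.65), Ccl2, Ccl5, Ccl4 and Ccl3 formed the upper set, and Ccl17, Ccl22, Ccl24 and Ccl20 (0.991 ± 0.7) the lower. Ccl20 thus stood at rank 3 of the 10 in KO-labelled controls and at rank 9 in KO-labelled IMQ mice. Ccr6 was the lowest of the 10 in each of the 4 groups.

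**Figure D4:**
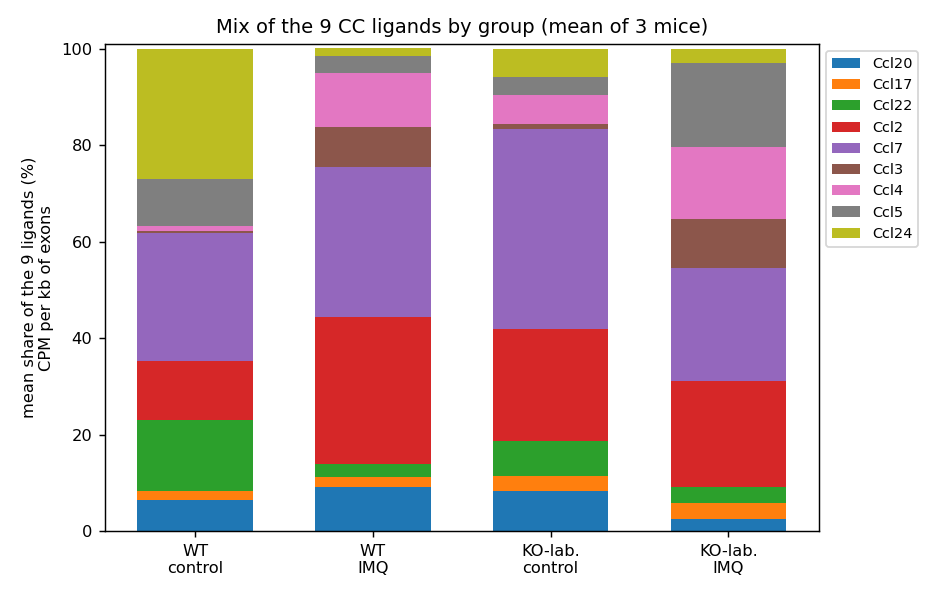
Mean share of each of the 9 ligands in their summed level (CPM per kb of exons) in the 4 groups, as stacked bars. Ccl24 takes 26.8% in WT control (11.2% to 52.2% in single mice) and 1.56% in WT IMQ mice, and Ccl20 takes 8.44% in KO-labelled control and 2.54% in KO-labelled IMQ mice.

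The 9 ligands together summed to 68.9 ± 35.8 CPM per kb in WT control, 54.1 ± 22.4 in WT IMQ, 103 ± 36.5 in KO-labelled control and 40.6 ± 4.96 in KO-labelled IMQ mice (SD, n = 3 each). Ccl22 and Ccl24 took 14.6% ± 8.24 and 26.8% ± 22.2 of the sum in WT control mice, and 2.86% ± 2.1 and 1.56% ± 0.603 in WT IMQ mice. The Ccl24 share of the WT controls ran from 11.2% to 52.2%, the highest being that of WT control mouse 1. Ccl2 took 12.3% ± 3.87 and 30.3% ± 8.79 in the same groups. In KO-labelled mice Ccl7 took 41.3% ± 1.33 without IMQ and 23.4% ± 7.32 with it, and Ccl5 3.82% ± 0.37 and 17.5% ± 5.06. These shares are given as descriptions, with no test.

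Of the wider CC family, 28 further ligands, receptors and atypical receptors were in the table and 23 were tested. In WT mice 2 were called higher with IMQ (Ccl25 and Ccr9; background 14.2%) and 5 lower (Ackr4, Ccl11, Ccl27a, Ccr3 and Ccr4; background 14.3%). In KO-labelled mice 2 were called higher (Ccr1 and Ccr9; background 14.1%) and 5 lower (Ackr4, Ccl12, Ccl19, Ccl27a and Ccr4; background 11.2%). None was called between the IMQ groups, between the controls or for the difference between responses by edgeR, where DESeq2 called 1 higher and 1 lower between the IMQ groups, and 1 higher and 2 lower for the difference. At an unadjusted p under 0.05 these 3 comparisons had 2, 1 and 4 genes higher (background 12.5%, 2.65% and 12.3%) and 1, 1 and 2 lower (background 14.5%, 3.95% and 11.9%). Over all genes DESeq2 called 1187 higher and 1250 lower between the IMQ groups, and 1033 and 874 for the difference. The medians of the 23 log2 fold changes with IMQ were -0.77 in WT and -0.28 in KO-labelled mice.

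Ccl27a, the keratinocyte ligand of CCR10, fell in both genotypes, with log2 fold changes of -1.53 ± 0.31 in WT (adjusted p = 0.00383) and -2.25 ± 0.32 in KO-labelled mice (adjusted p = 0.000692). It was at 20.8 ± 4.89 and 7.17 ± 0.168 CPM in WT control and WT IMQ mice, and at 23.5 ± 6.67 and 4.94 ± 2.24 CPM in the KO-labelled groups (SD, n = 3 each). Ccl27a has a near-identical copy, Ccl27b, so how reads were shared between them is uncertain. Ackr4, an atypical receptor that takes up CCL19, CCL21 and CCL25, fell too, with log2 values of -1.61 ± 0.30 and -1.11 ± 0.29 (adjusted p = 0.00213 and 0.0176). Ccr9, the receptor of CCL25, rose by 1.05 ± 0.31 in WT and 1.09 ± 0.31 in KO-labelled mice (adjusted p = 0.0248 and 0.0245).

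Ccl25 itself rose by 0.86 ± 0.28 in WT mice (adjusted p = 0.036) and had a log2 fold change of -0.46 ± 0.28 in KO-labelled mice (adjusted p = 0.243). Ccl19, a CCR7 ligand, fell by 2.30 ± 0.60 in KO-labelled mice (adjusted p = 0.0168), where it measured 3.68, 2.4 and 3.48 CPM without IMQ and 0.977, 0.0585 and 0.899 CPM with it. In WT mice the log2 value of Ccl19 was -1.19 ± 0.58 (adjusted p = 0.15). Ccl11, eotaxin-1, was called lower in WT mice, by a log2 value of -1.20 ± 0.37 (adjusted p = 0.0298), and had a value of -0.25 ± 0.36 in KO-labelled mice (adjusted p = 0.645).

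**Figure D5:**
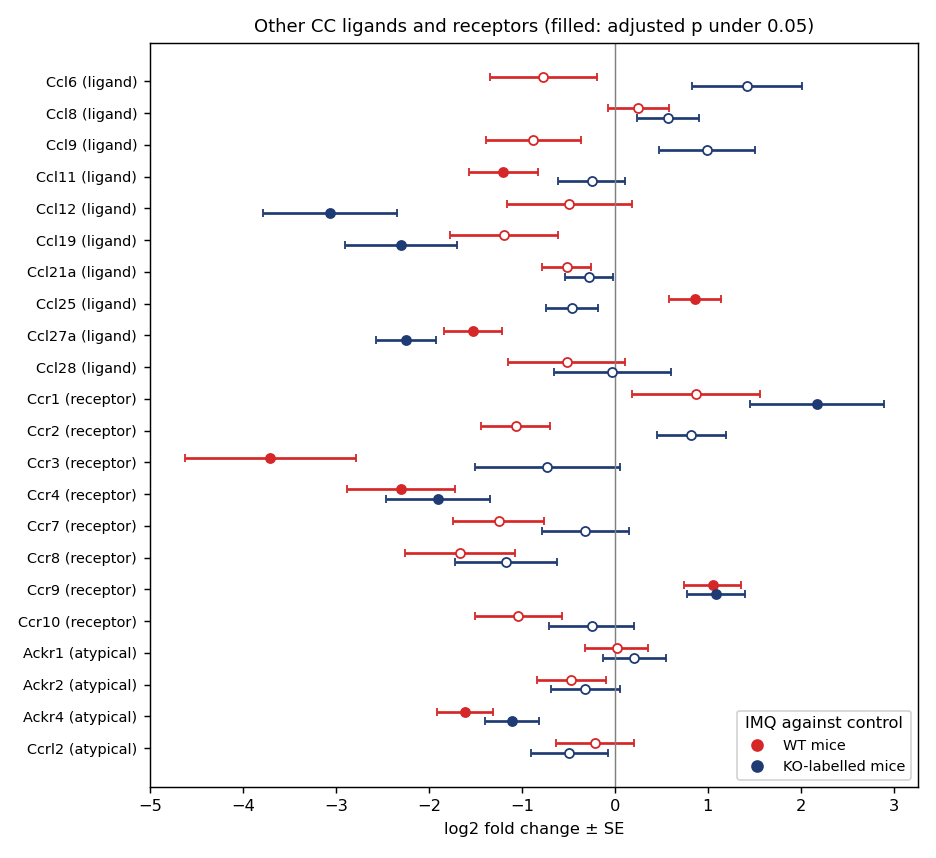
Log2 fold change with IMQ (bars, SE) of other CC ligands, receptors and atypical receptors tested, in WT (red) and KO-labelled (blue) mice; filled points passed an adjusted p of 0.05. Ccl27a, Ccr4 and Ackr4 are lower, and Ccr9 higher, in both genotypes.

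For each of the 10 genes, the genes with the most similar log2 CPM over the 12 mice were found among 15825 with a symbol and a mean of at least 1 CPM. The correlations are descriptions, since the mice share 4 groups and the genes named were picked as the highest of the 15825. High values over 12 mice follow in part from that picking, also for deviations taken from the same mice. Each r over the 12 mice is given with that of the deviations from the group means after it. The nearest to Ccl20 were Klhl7 (r = 0.97, deviations 0.95), Hoxd4 (0.94, deviations 0.70) and Prmt9 (0.90, deviations 0.85). Those of Ccl7 were Ccl12 (0.96, deviations 0.91), Igtp (0.92, deviations 0.92) and Gm15848 (0.92, deviations 0.81). For Ccl2 they were Zc3hav1 (0.93, deviations 0.91), Olfr56 (0.89, deviations 0.81) and Ccl7 (0.88, deviations 0.97).

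Ccl22 had Gm35986 (r = 0.97, deviations 0.92), Fcgbp (0.97, deviations 0.88) and Apol7c (0.97, deviations 0.93). Ccl24 had Rhobtb3 (0.97, deviations 0.85), Lyz1 (0.95, deviations 0.93) and Mylk4 (0.94, deviations 0.59), the last falling most when group means were removed. For Ccl4 they were Eif3s6-ps2 (0.83, deviations 0.67), Ccl3 (0.82, deviations 0.82) and Rps19-ps3 (0.82, deviations 0.79). For Ccl3 they were Rtp3 (0.90, deviations 0.83), Gm6988 (0.90, deviations 0.89) and Acod1 (0.90, deviations 0.90), the last being the enzyme that makes itaconate in activated macrophages. Ccl5 was closest to Tubb4a (0.96, deviations 0.93), and the lowly counted Ccl17 and Ccr6 to Mrrf (0.94, deviations 0.97) and to Ces1f (0.92, deviations 0.95).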

How the data were processed

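Bulk skin RNA-seq from 12 mice, 4 groups of 3 set by the sample labels, was analysed from the raw read counts per Ensembl gene that the authors deposited for each library. The study describes paired reads of 150 bases and DESeq2. The submitters' processing notes name HISAT and the genome build mm8; gene names and positions here are from GENCODE M21 on GRCm38, which holds 91.5% of the identifiers, and unmatched identifiers carry 0.567% of the counts.

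After filterByExpr (minimum count 10, minimum total 15) and TMM scaling, edgeR 4.0.16 in R 4.3.3 fitted the 4 group means with robust quasi-likelihood dispersions, using the 12 mice together. The contrasts were IMQ against control in each genotype, KO-labelled against WT mice in each treatment, and the interaction. Adjustment was over all 18529 genes tested. The script was tested on simulated data, drawn with edgeR's dispersion estimates, in which 200 genes changed 4-fold in WT IMQ mice. Of 149 edgeR calls 5 were false (3.36%), and of 198 DESeq2 calls 35 were false (17.7%). Of the 200 changed genes edgeR recovered 72% and DESeq2 81.5%. Only WT IMQ against WT control was simulated. Alternatives were RLE size factors, DESeq2 1.42.0, other filters, fits of the compared mice only, a replicate block, a fold above 2 with an unadjusted p under 0.05, and each mouse left out.

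The members, the CC family list and the marker lists were chosen with earlier results of these data known. Named in the text are the 10 members, Lcn2, the CC family genes called in any contrast, receptors of the members, and for each member up to 3 genes with the highest correlation of log2 CPM (prior count 2). Results for 1 receptor of the family are not reported here, though the family counts include it.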

Additional observations from a re-analysis of the deposited data

Results flagged for a closer look

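The IMQ response of Ccl20 differed between the genotypes by a test of the difference itself, at -3.23 ± 0.68 on the log2 scale for KO-labelled minus WT mice (edgeR, adjusted p = 0.0423). All 3 KO-labelled IMQ mice were below all 3 KO-labelled controls, while the 3 WT IMQ mice overlapped with the 3 WT controls. The adjusted p ranged from 9.76e-05 to 0.0627 over 4 other settings, and from 0.0301 to 0.127 over 12 fits that each left out a mouse.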

How the results depend on the processing

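Over the alternatives other than leaving out a mouse, 236 values of single genes kept their direction and side of the threshold, 12 lost a call, 7 gained one and 4 changed sign. With the replicate block, the signs changed for Ccl17 in WT mice (-0.03), Ccl4 in KO-labelled mice (0.12), and Ccl3 and Ccl4 between the IMQ groups (0.21 and 0.19), none of them called. Same-numbered mice are different animals and their deviations correlated between -0.555 and 0.199, so the numbers do not pair the mice. Under the block, members called higher in WT mice went from 2 to 0, and Ccl20 lost its call between the IMQ groups (0) and for the interaction (0). CC family genes called higher became 1 in WT and 1 in KO-labelled mice. Over all genes the calls between the IMQ groups fell to 77 higher and 59 lower.

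Members called higher in WT mice were also 0 without a filter and with the compared mice only. At least 10 counts in every library left Ccl3, Ccl4, Ccl17, Ccl20 and Ccr6 untested, so its 0 members higher in WT mice, and 0 lower between the IMQ groups and for the interaction, followed from the filter and bear on no call. Without a filter, members called lower were 1 in WT and 2 in KO-labelled mice, and family genes higher were 0 in both. Over all 34819 genes then fitted, 2319 were lower in WT and 1668 in KO-labelled mice, and 2130 and 2044 were higher. With at least 10 counts in every library, where fewer family genes were tested, 3 were lower in each genotype. With the compared mice only, family genes higher were 0 in WT mice, 4 in KO-labelled mice and 3 between the IMQ groups, where 1 member was higher. Over all genes that setting called 1909 higher in WT mice, 2723 in KO-labelled mice and 1077 between the IMQ groups. DESeq2 called 1 member and 1 family gene higher and 1 family gene lower between the IMQ groups, 1 member higher between the controls, and for the interaction 1 member higher, 3 lower, and 1 family gene higher and 2 lower. Over all genes DESeq2 called 1187 higher and 1250 lower between the IMQ groups, where edgeR called 405 and 481. Between the controls it called 56 and 49 (edgeR 1 and 1), and for the interaction 1033 and 874 (edgeR 253 and 145). A fold above 2 with an unadjusted p under 0.05 gave 1 family gene higher and 9 lower in WT mice (background 8.4% and 9.79%). In KO-labelled mice it gave 4 family genes higher (background 8.59%). Between the IMQ groups 1 member and 1 family gene were higher (background 3.1%). Between the controls 3 members and 1 family gene were higher (background 1.35%) and 1 member lower (background 0.928%). For the interaction 2 members and 4 family genes were higher (background 6.06%), and 4 members and 2 family genes lower (background 4.91%). The cause of these changes was not tested.

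Leaving out a mouse, members called ranged from 0 to 2 higher and 1 to 3 lower in WT mice, 2 to 5 lower in KO-labelled mice, and 0 to 1 lower between the IMQ groups and for the interaction. Family genes ranged from 0 to 2 higher and 3 to 7 lower in WT mice, 0 to 4 higher and 3 to 5 lower in KO-labelled mice, 0 to 1 in either direction between the IMQ groups, and 0 to 3 higher and 0 to 1 lower for the interaction. Over all genes, the calls in WT mice ran from 1775 to 2815 higher and from 1514 to 2847 lower in these fits. In KO-labelled mice they ran from 1736 to 2346 higher and from 971 to 1942 lower. Between the IMQ groups the calls over all genes were 0 without WT IMQ mouse 1, WT IMQ mouse 3 or KO-labelled IMQ mouse 3. They were 1 higher and 3 lower without KO-labelled IMQ mouse 1, and 1 and 0 without KO-labelled IMQ mouse 2. Without WT IMQ mouse 2 they were 1288 higher and 1438 lower. For the interaction they ran from 2 higher and 0 lower without WT IMQ mouse 3 to 1015 and 912 without WT IMQ mouse 2. Signs of uncalled values changed within these ranges: in WT mice Ccl7 -0.84 to 0.83, Ccl17 -1.23 to 0.6, Ccl20 -0.12 to 0.37 and Ccr6 -1.0 to 0.83. In KO-labelled mice Ccl4 ranged from -0.91 to 0.77. Between the IMQ groups Ccl3 ranged from -0.78 to 0.71, Ccl4 from -0.79 to 1.29, Ccl17 from -0.36 to 1.49, Ccl22 from -0.87 to 0.96 and Ccr6 from -1.57 to 0.32. Ccl5 ranged from -1.48 to 0.67 between the controls, and Ccl17 from -1.45 to 0.4 and Ccl22 from -0.67 to 1.16 for the interaction. Ccr6, Ccl17, Ccl3, Ccl4 and Ccl20 each had a library with 8 or fewer reads, which limits their precision.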
